A study of Mus musculus with 15 samples.

Results

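The transcripts of 10 extracellular matrix remodelling genes were followed in mouse skeletal muscle, out of 39179 genes counted in each of 15 mice. The genes were chosen by name, from a list drawn up with earlier results of these data known. They encode 4 structural or matricellular proteins (Fn1, Eln, Sparc and Postn), 1 cross-linking enzyme (Lox), 2 matrix metalloproteases (Mmp2 and Mmp14) and 3 tissue inhibitors of metalloproteases (Timp1, Timp2 and Timp3). Quadriceps muscle came from C57BL/6 mice of 4 groups: wild-type Mrps5 at 3 mo (n = 4), homozygous Mrps5 V338Y at 3 mo (n = 4), wild-type at 19 mo (n = 3) and homozygous V338Y at 19 mo (n = 4). Mrps5 encodes a protein of the small mitochondrial ribosomal subunit, and the V338Y knock-in, carried in every cell of the animal, lowers the accuracy of mitochondrial translation. The 2 age comparisons (19 mo against 3 mo in each genotype), the 2 genotype comparisons (V338Y against wild-type at each age) and the interaction of age and genotype were examined.

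The matrix around muscle fibers is laid down largely by fibroblasts and carries force from the fibers to the tendon. Secreted and membrane-bound metalloproteases cleave its proteins, and TIMPs block these enzymes. TIMP2 also serves as an adaptor through which the membrane protease MT1-MMP, the product of Mmp14, activates the gelatinase encoded by Mmp2. These are properties of proteins, while the values given here are of RNA from whole muscle, in which fewer cells of a type and less RNA per cell cannot be told apart.

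Total counts per mouse ran from 8250653 to 18968132. Levels are given as CPM, counts scaled to library size after TMM normalization over the 15 mice, and Mrps5 itself was at 23.6 ± 1.83 CPM in 3 mo wild-type (SD, n = 4), 25.7 ± 1.50 in 3 mo V338Y (SD, n = 4), 17.6 ± 1.79 in 19 mo wild-type (SD, n = 3) and 17.4 ± 1.63 in 19 mo V338Y (SD, n = 4). A point mutation does not show in a count, so these levels do not check the genotype labels. The study's methods describe the mice of 3 groups as female, whereas all 8 libraries of 3 mo mice held at most 0.574 CPM of Xist, the RNA that coats the inactive X chromosome of females, and 163 to 202 CPM of the Y-linked Ddx3y. The 7 libraries of 19 mo mice held 506 to 630 CPM of Xist and at most 0.0826 CPM of Ddx3y. Age and sex therefore cannot be told apart in any age comparison below, while both genotype comparisons are within 1 of these patterns. Timp1 is the member on the X chromosome. Of the 9 myofiber markers (such as Acta1 and Ckm) none was at 0 in any group, and their summed level was 170173 to 328835 CPM per mouse. One library stood apart from the rest, that of 19 mo V338Y mouse 5, with 641 CPM summed over 8 neutrophil markers against at most 28.3 CPM in each of the other 14 mice.

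Promoter sequences of RefSeq (GRCm38.p6) were at hand for 6 members, namely Sparc, Postn, Mmp14, Timp1, Timp2 and Timp3. Those of Mmp14 and Timp3 are printed because both genes rose with age in both genotypes, and that of Postn because its levels ran from 4.47 to 59.8 CPM among mice. Each runs 5′ to 3′ on the strand of the gene and ends at the base before the annotated start site, or for Timp3 where an annotated exon begins, with matches to 4 motifs in capitals. The letters searched, on both strands of the 250 bases before the start site, were TATAAA for the TATA box, CCAAT for the box of that name, GGGCGG for the GC box and TGANTCA for the AP-1 site. A match is a string of letters and not a binding site.
Mmp14, chr14:54431348-54431597, plus strand: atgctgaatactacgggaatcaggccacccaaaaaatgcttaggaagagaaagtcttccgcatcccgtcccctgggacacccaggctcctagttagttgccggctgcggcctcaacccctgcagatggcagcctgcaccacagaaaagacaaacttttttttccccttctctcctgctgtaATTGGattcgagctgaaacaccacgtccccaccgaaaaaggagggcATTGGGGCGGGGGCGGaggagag
Timp3, chr10:86300162-86300371, plus strand: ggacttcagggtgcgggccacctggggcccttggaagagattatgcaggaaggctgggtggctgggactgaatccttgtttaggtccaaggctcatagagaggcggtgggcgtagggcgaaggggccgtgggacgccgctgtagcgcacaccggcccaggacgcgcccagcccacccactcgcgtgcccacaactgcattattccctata
Postn, chr3:54360857-54361106, plus strand, the second of 2 start sites: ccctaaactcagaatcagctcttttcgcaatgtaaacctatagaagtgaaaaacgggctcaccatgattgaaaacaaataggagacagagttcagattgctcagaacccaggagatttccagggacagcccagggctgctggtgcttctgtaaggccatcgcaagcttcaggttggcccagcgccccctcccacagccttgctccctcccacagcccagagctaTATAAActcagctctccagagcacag
The Mmp14 stretch held 2 CCAAT matches on the minus strand, which read ATTGG here, and 2 GC box matches, and the second CCAAT match shared 1 base with the first GC box match. The Postn stretch held TATAAA from base -26 to base -21, counted back from the second start site. The 250 bases before the first Postn start site, with a GC content of 40.4%, held no match and are not printed. The 210 bases printed for Timp3 held no match. The 1 match of Timp3 in the 250 bases searched, GC box letters on the minus strand from base -15 to base -10, lies in an annotated exon and is not printed. The GC content of the 250 bases was 65.6% for Timp3, 55.2% for Mmp14 and 52.0% for the second start site of Postn. Of all 32851 RefSeq promoters searched alike, 12.4% held the TATA box letters, 33.8% those of the CCAAT box, 32.7% those of the GC box and 6.75% those of the AP-1 site, the last of which were in none of the 3 stretches.

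Compared per kilobase of exon, which allows levels of different genes to be set side by side, Sparc was the most abundant member in both 3 mo groups, at 55.7 ± 12.1 CPM per kilobase in wild-type and 64.5 ± 2.64 in V338Y (SD, n = 4). In 3 mo wild-type Timp2 (20.7 ± 3.48), Timp3 (17.9 ± 1.46), Mmp2 (16.1 ± 1.66) and Fn1 (13.5 ± 2.98) followed, each differing from its neighbour by less than the sum of their SDs. Lox (7.28 ± 1.81 CPM per kilobase) stood below these. Postn (1.46 ± 0.466), Mmp14 (1.24 ± 0.230) and Eln (1.05 ± 0.167) again did not differ from their neighbours by more than the sum of the SDs, and Timp1 was lowest (0.245 ± 0.0823). In 19 mo wild-type muscle Timp2 (27.8 ± 3.12 CPM per kilobase, SD, n = 3) and Sparc (26.5 ± 1.95) were level within their SDs. In 19 mo V338Y muscle Sparc had 33.5 ± 6.88 CPM per kilobase (SD, n = 4), next to Timp2 at 27.7 ± 8.19 and Fn1 at 25.2 ± 7.50, gaps smaller than the sum of their SDs. Timp1 stayed far below the other TIMPs, with a highest group mean of 0.889 ± 0.461 CPM per kilobase in 19 mo V338Y (SD, n = 4). The ratio of Timp1 to Timp2 in raw counts was at most 0.0187 in any mouse. That ratio is not divided by exon length, which is 888 bases for Timp1 and 3896 for Timp2.

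**Figure D1:**
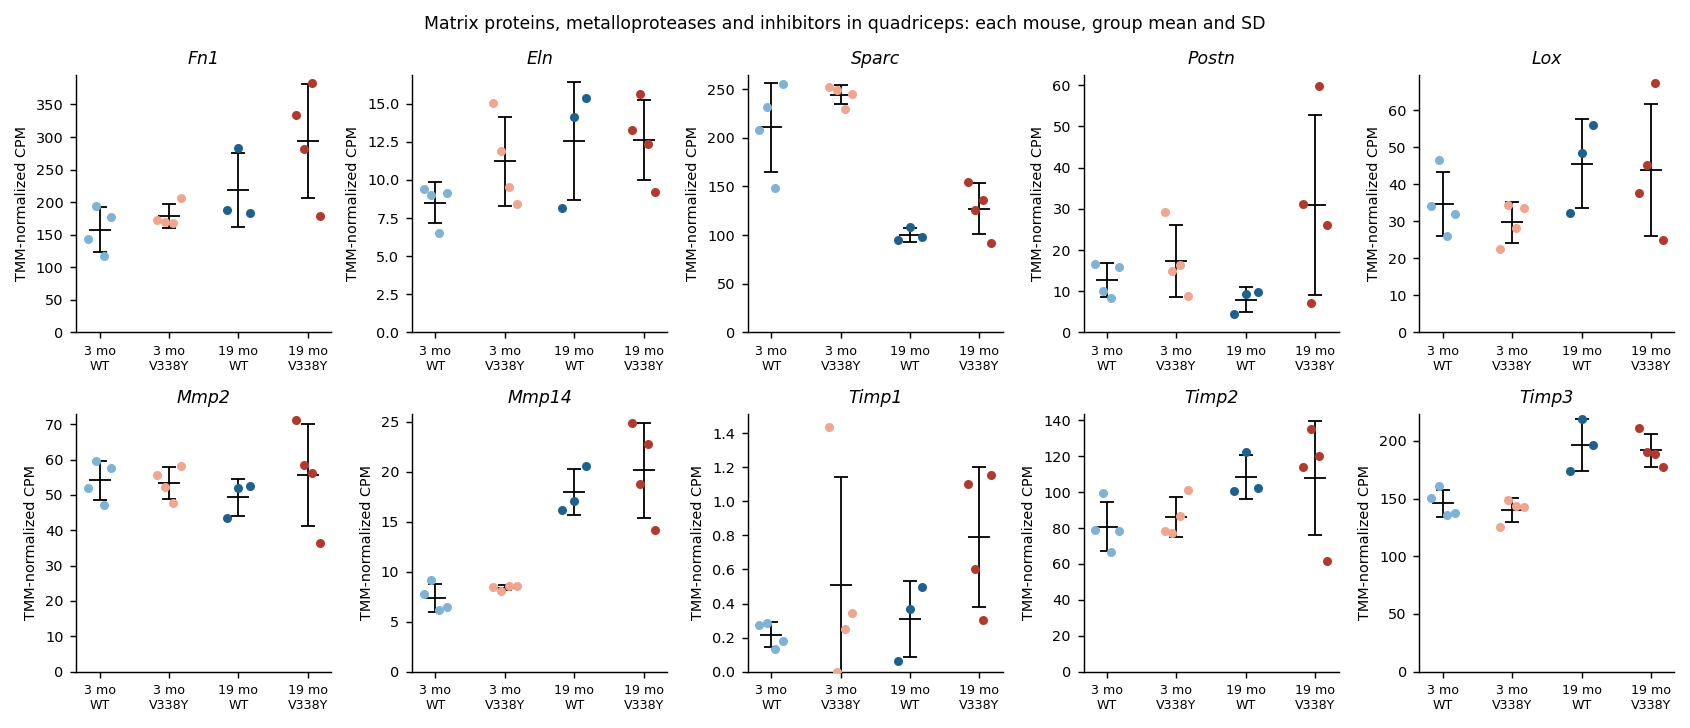
TMM-normalized CPM (linear axis from 0, a separate scale for each gene) of the 10 genes in each mouse, with points for mice and bars for the group mean and SD. Mmp14 and Timp3 of 19 mo mice lie above those of 3 mo mice in both genotypes, Sparc lies below, and Postn of 19 mo V338Y mice runs from 7.03 to 59.8 CPM; the SD bar of Timp1 in 3 mo V338Y is drawn down to 0 only.

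With age, 4 of the 9 members tested in wild-type mice changed, Mmp14, Timp3 and Timp2 upwards and Sparc downwards. In V338Y mice 4 of 10 changed, Mmp14, Timp3 and Fn1 upwards and Sparc downwards. These shares stand against 36.2% of all 13657 genes called in wild-type and 46.9% of all 13868 genes in V338Y (edgeR quasi-likelihood test, Benjamini-Hochberg adjusted p under 0.05), so the members were called about as often as other genes. The median log2 fold change of the members was 0.43 in wild-type and 0.48 in V338Y, against 0.02 and 0.07 for all genes tested. Timp1 passed the filter on low counts in V338Y but not in wild-type mice, and it passed at 19 mo through V338Y mice alone.

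Mmp14, the membrane-anchored collagenase, rose most. Its levels were 7.75, 9.15, 6.16 and 6.43 CPM in the 3 mo wild-type mice and 16.1, 17.1 and 20.6 CPM in the 19 mo wild-type mice. In V338Y they were 8.50, 8.10, 8.52 and 8.52 CPM at 3 mo and 24.8, 18.8, 22.8 and 14.1 CPM at 19 mo. Every old mouse lay above every young mouse of its genotype, as 21.7% of all genes did in wild-type and 20.3% in V338Y. The log2 fold change was 1.28 (SE 0.16, adjusted p = 5.81e-04 by edgeR) in wild-type, a 2.43-fold rise, and 1.27 (SE 0.17, adjusted p = 4.42e-04) in V338Y. The young V338Y mice had an SD of 0.209 CPM and the old ones of 4.72 CPM. The young values rest on only 74 to 148 counts per mouse, so so small an SD is not read as a uniform group.

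Sparc, the collagen-binding matricellular protein osteonectin, fell. Young wild-type mice had 208, 232, 149 and 255 CPM and old ones 94.5, 109 and 98.0 CPM. Young V338Y mice had 253, 249, 230 and 245 CPM and old ones 155, 126, 136 and 92.4 CPM. Neither genotype had an overlap between the ages, and 21.7% of all genes in wild-type and 22% in V338Y were lower in this way. Old wild-type muscle held 0.477 of the young level (log2 fold change -1.07, SE 0.17, adjusted p = 0.00180 by edgeR) and old V338Y muscle 0.526 (-0.93, SE 0.15, adjusted p = 0.00104).

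Timp3, an inhibitor that is bound to the matrix, rose by a smaller and more uniform step. Its levels were 150, 161, 136 and 137 CPM in young wild-type mice and 174, 219 and 196 CPM in old ones. In V338Y mice they were 126, 149, 144 and 143 CPM at 3 mo and 212, 190, 188 and 177 CPM at 19 mo. No old mouse overlapped with the young mice of its genotype, and 21.7% of all genes in wild-type and 20.3% in V338Y were higher in this way. The log2 fold change was 0.43 in wild-type (SE 0.11, adjusted p = 0.0132 by edgeR) and 0.47 in V338Y (SE 0.10, adjusted p = 0.00435). Without 19 mo wild-type mouse 4, the highest of the 15, the adjusted p in wild-type was 0.0644. The exons of Timp3 share 1733 bases (21.3% of their length) with those of Syn3 on the other strand, and the use of strand in the authors' counting is not given in the sources used here. At most 26 counts were assigned to Syn3 in any mouse, against at least 1239 to Timp3.

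Timp2, which inhibits metalloproteases and takes part in Mmp2 activation, had 78.8, 99.3, 66.7 and 78.2 CPM in young wild-type mice and 101, 122 and 102 CPM in old ones. The old mice lay just above the young, as for 21.7% of all genes, and the log2 fold change of 0.43 passed the threshold narrowly (SE 0.14, adjusted p = 0.0362 by edgeR). It missed the threshold without 19 mo mouse 4 or without any one of 3 mo mice 1, 3 and 4, with adjusted p between 0.0737 and 0.150. In V338Y mice Timp2 was 78.3, 77.4, 87.0 and 101 CPM at 3 mo and 114, 135, 120 and 61.8 CPM at 19 mo. Mouse 5 lay below every young mouse and the others above them all, so the groups overlapped (log2 fold change 0.34, SE 0.21, adjusted p = 0.214). Without mouse 5 the log2 fold change was 0.54 (SE 0.12, adjusted p = 0.00481).

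Fn1 encodes fibronectin, the adhesive glycoprotein onto which other matrix proteins assemble. Young V338Y mice had 173, 169, 168 and 207 CPM and old ones 334, 281, 383 and 178 CPM. Again mouse 5 alone lay among the young mice. Fn1 rose 1.66-fold in V338Y (log2 fold change 0.73, SE 0.21, adjusted p = 0.0176 by edgeR), and without 3 mo mouse 3 the adjusted p was 0.0505. In wild-type the levels were 143, 195, 117 and 177 CPM at 3 mo and 188, 284 and 184 CPM at 19 mo, with overlap (log2 fold change 0.47, SE 0.20, adjusted p = 0.0936). The age effects in the 2 genotypes were not shown to differ (interaction 0.25, SE 0.32, not called).

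For the 3 members called in both genotypes the interaction was likewise not called, at -0.03 for Mmp14 (SE 0.24), 0.13 for Sparc (SE 0.23) and 0.03 for Timp3 (SE 0.14).

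Of the remaining members none was called with age. Eln, which encodes the elastic fiber protein tropoelastin, ranged from 6.50 to 15.6 CPM over the 15 mice and had a log2 fold change of 0.56 in wild-type (SE 0.22, adjusted p = 0.0764 by edgeR) and 0.17 in V338Y (SE 0.20, adjusted p = 0.508). Without 19 mo wild-type mouse 2, which had 8.14 CPM against 14.1 and 15.4 in the other two, the first of these was 0.80 (adjusted p = 0.00756). Lox, whose enzyme starts the cross-linking of collagen and elastin, ranged from 22.5 to 67.5 CPM, with log2 fold changes of 0.39 (SE 0.22, adjusted p = 0.188) and 0.58 (SE 0.27, adjusted p = 0.106). Without 19 mo V338Y mouse 5 the latter was 0.78 (adjusted p = 0.0116). Mmp2, the secreted gelatinase, was nearly level, at group means of 49.3 to 55.6 CPM and log2 fold changes of -0.13 (SE 0.11, adjusted p = 0.373) in wild-type and 0.07 (SE 0.18, adjusted p = 0.761) in V338Y. Postn had log2 fold changes of opposite sign, -0.68 (SE 0.32, adjusted p = 0.120) in wild-type and 0.83 (SE 0.54, adjusted p = 0.230) in V338Y.

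**Figure D2:**
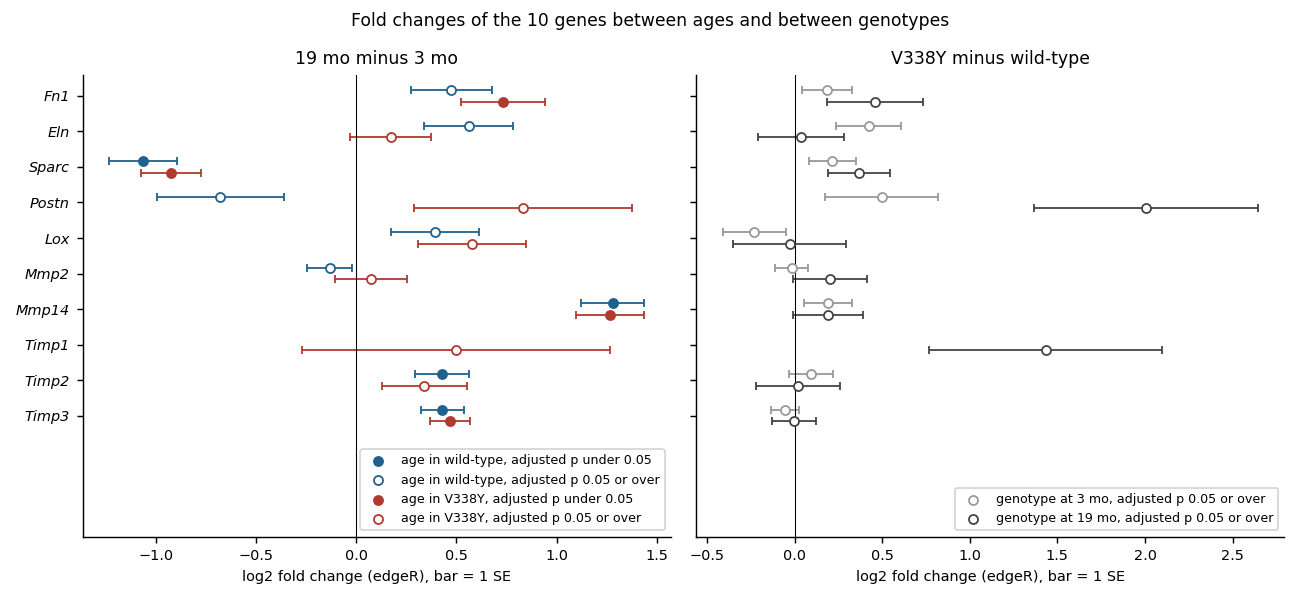
Log2 fold changes of each gene with a bar of 1 SE, for 19 mo minus 3 mo in each genotype (left) and V338Y minus wild-type at each age (right); filled points passed an adjusted p of 0.05 in edgeR, and Timp1 has no point where it did not pass the filter on low counts. Mmp14 (1.28 and 1.27), Sparc (-1.07 and -0.93) and Timp3 (0.43 and 0.47) were called in both age comparisons, and no point on the right is filled.

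Because both genes of a ratio come from 1 library, ratios within a mouse do not depend on how libraries were scaled. The Mmp14 to Timp2 ratio of counts was 0.0912 ± 0.00663 in 3 mo wild-type (SD, n = 4), 0.0988 ± 0.0107 in 3 mo V338Y (SD, n = 4), 0.167 ± 0.0314 in 19 mo wild-type (SD, n = 3) and 0.193 ± 0.0401 in 19 mo V338Y (SD, n = 4). No old mouse (lowest 0.139) overlapped with a young one (highest 0.109). The Mmp2 to Timp2 ratio was lower in old wild-type mice (0.424 to 0.515) than in young ones (0.600 to 0.737), without overlap. In V338Y the corresponding ranges were 0.432 to 0.626 and 0.548 to 0.712, which overlapped. These ratios are given as a description, with no test.

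**Figure D3:**
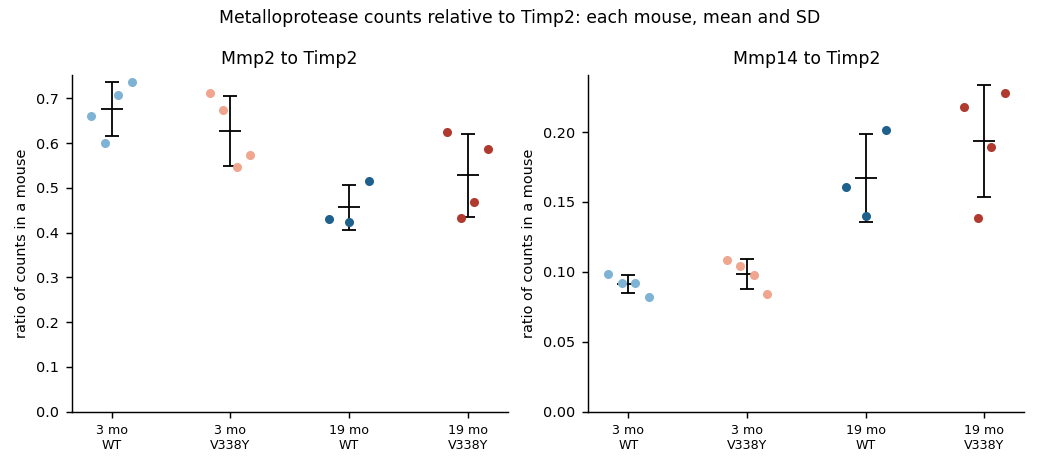
Ratio of Mmp2 counts (left) and of Mmp14 counts (right) to Timp2 counts in each mouse (points), with group mean and SD (bars) on axes from 0. The Mmp14 to Timp2 ratio of the 7 old mice lies above 0.138 and that of the 8 young mice below 0.109, whereas Mmp2 to Timp2 lies lower in old wild-type mice than in young ones.

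Markers of several cell types moved with age alongside these genes, and their part in the members' changes was not tested. Over all genes tested 18.3% rose and 17.8% fell in wild-type, and 24.4% rose and 22.5% fell in V338Y. The counts of markers called below stand against these shares, and a short list near them is not set apart. The summed level of 10 fibroblast markers did not separate the ages. It was 1668 to 1867 CPM in young and 1436 to 1983 CPM in old wild-type mice. In V338Y it was 1678 to 1981 CPM in young and 1104 to 2373 CPM in old mice. The sum is weighted towards Gsn, which averaged 1426 CPM in young and 1294 CPM in old wild-type mice. Of the 10 markers 1 rose in wild-type (Pdgfra, from 67.8 to 93.1 CPM) and 1 fell (Cxcl14, from 31.3 to 15.5 CPM). None was called in V338Y. Smooth muscle and pericyte markers, in contrast, summed to 396 to 448 CPM in young and 511 to 789 CPM in old wild-type mice, and 6 of 7 tested rose. In V338Y 7 of 8 rose, with sums of 335 to 429 CPM at 3 mo and 504 to 745 CPM at 19 mo. Macrophage markers rose in 5 of 9 cases in either genotype, and myofiber markers fell in 3 of 9 in wild-type and 5 of 9 in V338Y. No marker of these 4 lists was at 0 throughout a group. Schwann cell markers rose in 3 of 6 cases in wild-type and 5 of 6 in V338Y, and endothelial markers in 3 of 8 and 4 of 8. Of 8 neutrophil markers 7 rose in V338Y, while in wild-type 3 passed the filter and none was called. A marker near 0 in young mice could pass the filter through the old mice alone. In the interaction none of the 8 neutrophil markers was called. Their sums were 0.364 to 2.85 CPM in young and 3.11 to 5.95 CPM in old wild-type mice and 0.806 to 2.87 CPM in young and 4.10 to 641 CPM in old V338Y mice, with Ltf, Ngp and Mpo at 0 in every young mouse and Camp at 0 in the young wild-type mice. Adipocyte markers were all 8 below 0 in log2 fold change in wild-type, where 1 fell, and all 8 above 0 in V338Y, where 4 rose, and their sums overlapped between the ages in both genotypes. Of 6 tendon cell markers 2 rose in V338Y, of 5 erythroid markers 2 fell in wild-type, and of 4 satellite cell markers tested 1 rose and 1 fell in V338Y, with no other call in these 3 lists.

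Among other genes of the matrix, described by lists chosen with earlier results of these data known, structural glycoproteins and proteoglycans rose more often than they fell with age. Of 44 genes of this kind 16 rose and 2 fell in wild-type, with a median log2 fold change of 0.45, and 17 rose and 2 fell in V338Y, with a median of 0.39 (over all genes tested 18.3% rose and 17.8% fell in wild-type, and 24.4% rose and 22.5% fell in V338Y). In wild-type Lamb2, a laminin chain of basement membranes, went from 123 to 206 CPM (log2 fold change 0.75, adjusted p = 4.79e-04 by edgeR). Ltbp3, which binds latent TGF-beta, and Agrn, the proteoglycan that clusters acetylcholine receptors at the neuromuscular junction, rose by 1.02 and 0.77 on the log2 scale. The 2 that fell, like Sparc, were Vtn (vitronectin, -0.88) and the laminin chain gene Lamb1 (-0.35). In V338Y the smallest p were those of Ltbp3 (1.18), Ltbp4 (1.44), which anchors latent TGF-beta to elastic fibers, and Hspg2 (1.24), the basement membrane proteoglycan perlecan. Mfap4 (-0.54) and Lama2 (-0.37), the laminin chain lacking in a congenital muscular dystrophy, fell.

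Few of the other enzymes that modify and cross-link collagen were called, and Lox was not either. Of 18 others tested 1 rose in wild-type and 2 rose and 1 fell in V338Y, with medians of 0.02 and -0.01. For all genes tested the shares called were 36.2% in wild-type and 46.9% in V338Y. Plod2, a lysyl hydroxylase, rose in both (log2 fold change 1.07 and 0.87). Plod1, another lysyl hydroxylase, rose (0.30) and the transglutaminase gene Tgm2 fell (-0.37) in V338Y.

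Of the other metalloproteases 10 of 22 tested rose in V338Y, as Mmp14 did, and 3 of 21 rose in wild-type, with none that fell (medians 0.55 and 0.19). A gene low in young mice could pass the filter on low counts through the old mice alone, so these counts and medians describe the genes that passed and not the whole list of 28. Of all genes tested 18.3% rose and 17.8% fell in wild-type, and 24.4% rose and 22.5% fell in V338Y. The 3 of 21 in wild-type were not above that share. Mmp3, stromelysin-1, went from 0.913 to 4.39 CPM in wild-type with overlap (log2 fold change 2.29, SE 0.57, adjusted p = 0.0132 by edgeR) and from 0.583 to 5.74 CPM in V338Y without overlap (3.18, SE 0.42, adjusted p = 3.90e-04). Young V338Y mice had only 19, 3, 6 and 4 counts of Mmp3, so it passed the filter there through the old mice alone. Its values in V338Y are therefore a description. In V338Y 20.3% of all genes were higher without overlap. Adamts15, which cleaves proteoglycans, rose by 0.65 in wild-type and 1.58 in V338Y on the log2 scale, and the sheddase gene Adam10 by 0.39 and 0.60. Whether the list differed between the genotypes was tested gene by gene through the interaction, in which none of its 22 tested genes was called. Of 6 other inhibitors tested 2 fell and none rose in each genotype (medians -0.06 and -0.35), namely Cst3, the cysteine protease inhibitor cystatin C (-0.84 and -0.96), and Serpine2, the serine protease inhibitor protease nexin-1 (-0.58 and -0.54).

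Receptors for these matrix proteins rose in 8 of 15 cases and fell in 1 in wild-type (median log2 fold change 0.37), and rose in 9 and fell in 1 in V338Y (median 0.40). Among all genes tested 18.3% rose and 17.8% fell in wild-type, and 24.4% rose and 22.5% fell in V338Y. Itga5, the alpha chain of the classical fibronectin receptor, rose by 1.14 in wild-type (SE 0.20, adjusted p = 0.00288 by edgeR) and 1.19 in V338Y (SE 0.18, adjusted p = 8.10e-04). Its partner Itgb1 fell (-0.33 and -0.37). Itga8 (1.08) and Itgav (0.39), which also pair into receptors for fibronectin, also rose in wild-type. In V338Y Cd44 (1.04), the hyaluronan receptor, and Itga1 (0.86), a collagen receptor chain, rose as well.

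**Figure D4:**
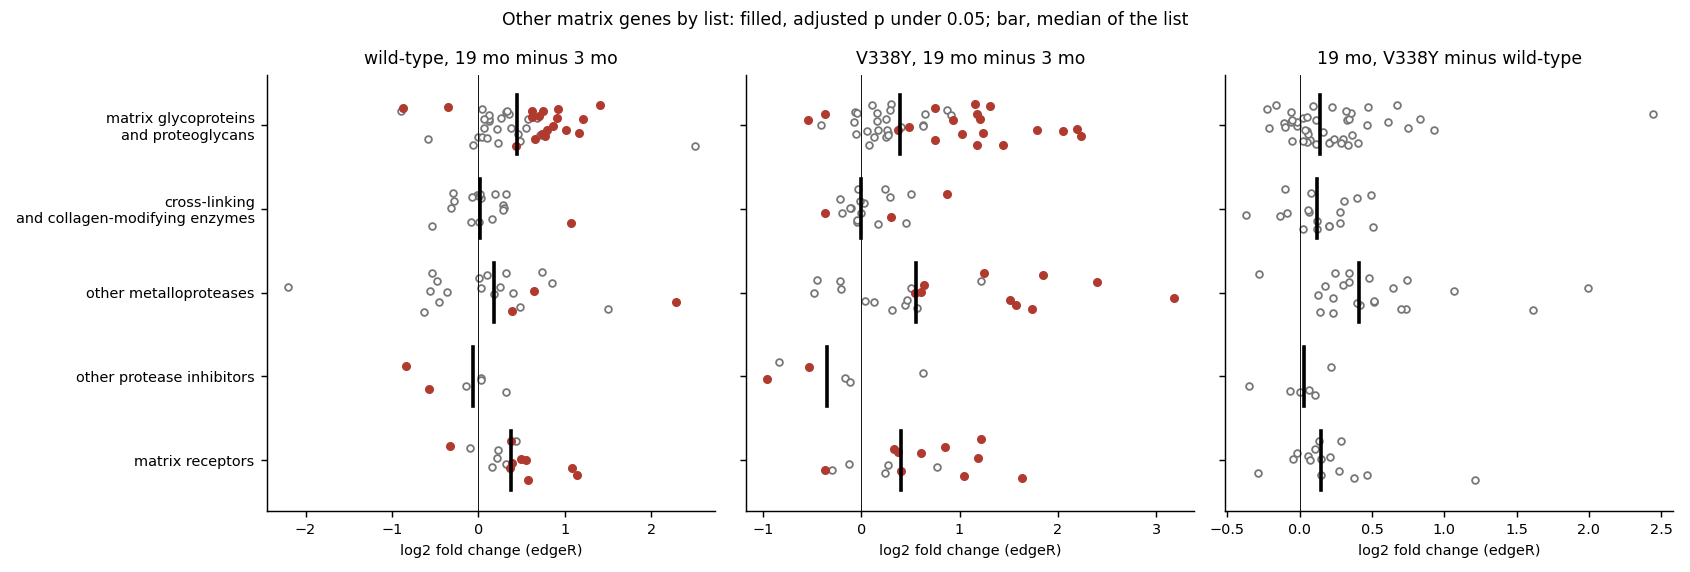
Log2 fold changes of other matrix genes (points, 1 per gene passing the filter) by list, for age in wild-type, age in V338Y and genotype at 19 mo; filled points passed an adjusted p of 0.05 in edgeR and the black bar is the median of the list. Most filled points lie to the right in both age panels, other protease inhibitors lie to the left where filled, and no point is filled in the genotype panel.

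The genotype comparisons asked whether the mutation changed these transcripts at a given age. At 3 mo none of the 9 members tested was called, with 10 of 13333 genes called in all (0.075%), and no member separated the genotypes, as 4.71% of all genes did. The 4 structural members were higher in V338Y by 0.19 (Fn1, SE 0.14), 0.42 (Eln, SE 0.19), 0.22 (Sparc, SE 0.14) and 0.50 (Postn, SE 0.32) on the log2 scale. The smallest adjusted p by edgeR was that of Eln, 0.502. Postn itself was at 16.6, 10.1, 8.42 and 15.8 CPM in wild-type and 29.3, 14.95, 16.4 and 8.75 CPM in V338Y mice, where mouse 1 alone lay above all wild-type mice. Eln was at 9.39, 9.01, 6.50 and 9.15 CPM in wild-type and 15.05, 11.9, 9.51 and 8.41 CPM in V338Y, where 3 mice lay above all wild-type mice and mouse 4 among them. Lox had a log2 fold change of -0.23 (SE 0.18), and the metalloproteases, Timp2 and Timp3 lay between -0.05 and 0.19.

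At 19 mo again none of 10 members was called, with 6 of 13833 genes called in all (0.0434%), and no member separated the genotypes, as 9.8% of all genes did. By DESeq2 none of the members was called at either age, and at an unadjusted p under 0.05 edgeR gave 1 member at each age, Eln at 3 mo and Postn at 19 mo, where 9.7% and 8.93% of all genes were under it. Postn encodes periostin, a matricellular protein made by activated fibroblasts. Its levels were 4.47, 9.40 and 9.91 CPM in wild-type mice 2, 4 and 5 and 31.2, 7.03, 59.8 and 26.0 CPM in V338Y mice 2, 3, 4 and 5. Of the V338Y mice 3 lay above all wild-type mice and 1 within their range. The log2 fold change was 2.01 (SE 0.64, adjusted p = 0.525 by edgeR). With the mouse number as a block Postn was called (log2 fold change 2.31, SE 0.26, adjusted p = 0.0165 by edgeR), and 0.795% of all genes were called in that fit. V338Y mouse 3, the one with the low value, has no wild-type mouse of its number, so it added nothing to the blocked fold change. Left out of the fit without the block, it gave a log2 fold change of 2.35 (SE 0.41, adjusted p = 0.176). The age effect on Postn was not shown to differ between genotypes (interaction 1.49, SE 0.74, adjusted p = 0.542 by edgeR, and 1.86, SE 0.44, adjusted p = 0.0816 with age and mouse number as a block). The blocked fits assume a pairing by number that the labels do not state. For the interaction this includes the 3 mo mice, which the numbers did not pair.

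Within each genotype the 19 mo mice fell in the same order for Postn and for the summed level of 8 adipocyte markers. These sums were 567, 196, 950 and 392 CPM in V338Y mice 2 to 5 and 153, 207 and 346 CPM in wild-type mice 2, 4 and 5. At 3 mo the orders of Postn and of the adipocyte sums differed only in the lowest mice. Mice 2 and 4 changed places in V338Y and mice 2 and 3 in wild-type, and mouse 1 was highest for both in each genotype. Adipoq, 1 of these 8 markers, was among the 3 genes most like Postn over these same mice, so the shared order is no separate evidence. The 3 mo sums were 543, 137, 274 and 188 CPM in V338Y mice 1 to 4. They were 797, 230, 311 and 534 CPM in wild-type mice 1 to 4. The fibroblast sums, weighted towards Gsn, were 1866, 1835, 2373 and 1104 CPM in 19 mo V338Y mice 2 to 5. Their part in the Postn levels was not tested. Ltbp2, a glycoprotein of microfibrils and one of the 3 genes whose pattern was most like that of Postn, was at 2.90, 1.67, 9.32 and 3.98 CPM in V338Y mice and 0.621, 0.888 and 0.991 CPM in wild-type mice, without overlap. It was picked for that likeness over these same mice, so its values are no separate evidence. Of all genes tested at 19 mo, 9.8% separated the genotypes.

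**Figure D5:**
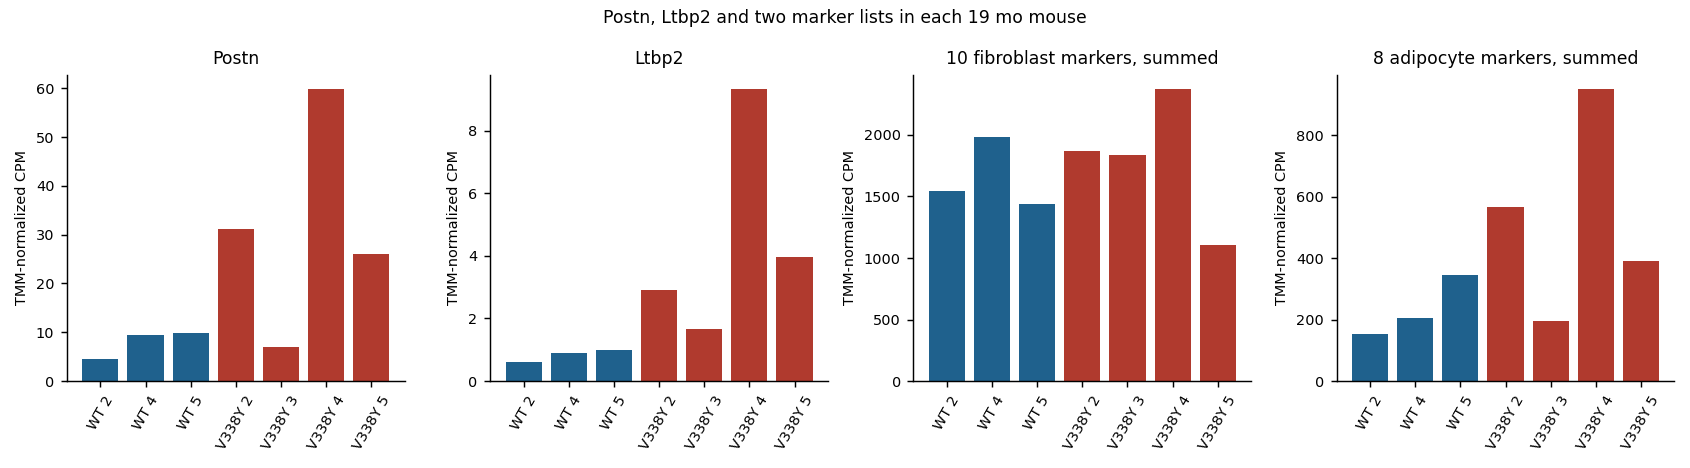
TMM-normalized CPM (bars from 0) of Postn, of Ltbp2, of 10 summed fibroblast markers (a sum weighted towards Gsn) and of 8 summed adipocyte markers in each 19 mo mouse, wild-type in blue and V338Y in red. V338Y mouse 4 is highest in all panels (59.8 CPM of Postn), mouse 3 is lowest of the V338Y mice in all but the fibroblast panel, and mouse 5 has the lowest fibroblast sum (1104 CPM).

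Timp1, an inhibitor that is induced in many forms of tissue injury, was near the limit of detection. It had 0 to 25 counts per mouse, and the 0 in 3 mo V338Y mouse 2 allows up to 0.286 CPM (3 counts, counting error only). At 19 mo it was at 0.0621, 0.370 and 0.496 CPM in wild-type mice and at 1.10, 0.603, 0.301 and 1.15 CPM in V338Y mice. The groups overlapped (log2 fold change 1.43, SE 0.66, adjusted p = 0.564 by edgeR). The highest level of all, 1.44 CPM, was that of 3 mo V338Y mouse 1. In the 2 comparisons in which Timp1 did not pass the filter, a fit without a filter gave 0.42 for age in wild-type (adjusted p = 0.714) and 1.36 for genotype at 3 mo (adjusted p = 0.722).

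The other members at 19 mo had log2 fold changes of 0.46 (Fn1, SE 0.28), 0.37 (Sparc, SE 0.18), 0.20 (Mmp2, SE 0.21), 0.19 (Mmp14, SE 0.20), 0.04 (Eln, SE 0.25), 0.02 (Timp2, SE 0.24), 0.00 (Timp3, SE 0.13) and -0.03 (Lox, SE 0.32). Mouse 5, the V338Y mouse with the high neutrophil sum and the lowest fibroblast sum of all 15 mice, was the lowest of the 4 V338Y mice for 8 of 10 members, all but Postn and Timp1. Without it Fn1 was higher by 0.64 (SE 0.21, adjusted p = 0.492 by edgeR) and Sparc by 0.50 (SE 0.14, adjusted p = 0.453). A shared low mouse was seen in other groups too. In 3 mo wild-type mouse 3 was lowest for all 10 members and had 1738 CPM of fibroblast markers, within the range of its group, and in 19 mo wild-type mouse 2 was lowest for 9. The share of all genes for which each of these mice was lowest was not counted. Such a shared low is therefore not set apart as a trait of the members.

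None of the 105 tested genes of the other matrix lists was called at 19 mo. Mmp9, gelatinase B of neutrophils and macrophages, which was picked after its values were seen, was at 7.45, 7.77 and 5.04 CPM in wild-type mice and 11.3, 10.1, 9.92 and 24.0 CPM in V338Y mice. The highest of these is mouse 5, and the part of its 641 CPM of neutrophil markers in that value was not tested. In the interaction no gene of 14128 was called (0%), with 1361 (9.63%) and none of the members at an unadjusted p under 0.05 and 26 genes called by DESeq2. Among the members Eln had the most negative interaction (-0.40, SE 0.33, adjusted p = 0.717 by edgeR) and Postn the most positive.

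Variation among mice of a group differed widely between members. The coefficient of variation was 7.23% to 11.5% for Timp3 and 8.57% to 25.9% for Mmp2, against 31.9% to 70.4% for Postn and 33.6% to 125% for Timp1, whose counts are few. Over all mice the highest level was 13.4 times the lowest for Postn, 4.02 times for Mmp14 and 1.74 times for Timp3.

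For each member the genes of most like pattern were taken as those with the smallest root mean square difference of log2(CPM + 0.5), after centring, over the 15 mice and 14128 genes. The mice share their libraries, and age and sex, so these are descriptions. Sparc was most like the collagen chain genes Col4a5 (0.189) and Col1a2 (0.216), against its own SD of 0.55 on that scale. Timp3 was most like Cplane1 (0.0666, own SD 0.24), and Timp2 like Tnxb (0.150, own SD 0.32), which encodes tenascin-X of the connective tissue matrix. Mmp14 was most like Myo1d (0.170, own SD 0.65), Mmp2 like Srpx2 (0.147, own SD 0.22), Fn1 like Dpysl3 (0.175, own SD 0.45) and Lox like Tgfbr3 (0.210, own SD 0.43), the TGF-beta co-receptor betaglycan. Postn had no close match, since its nearest genes, Vnn3, Ltbp2 and the adipocyte hormone gene Adipoq, were 0.563 to 0.571 away with its own SD at 0.91. Timp1 was most like the macrophage lysozyme gene Lyz2 (0.325, own SD 0.55), and Eln like Gm17501 (0.213, own SD 0.36).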

How the data were processed

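RNA of quadriceps muscle was sequenced from 15 mice on a stranded single-end protocol. The authors mapped reads with RSEM and deposited its expected counts, already whole numbers, which are scaled neither to depth nor to length. The submitters' processing notes name STAR 2.4.2a, bcl2fastq 1.8.4, CASAVA 1.8 and the GRCm38 assembly, whereas the paper's methods name GRCm37. How estimates were rounded is not given in the sources used here. Reads shared between similar genes are split by RSEM, so single counts are model estimates. The files hold no coordinates. Symbols and exon lengths came from a GRCm38 annotation (37607 of 39179 identifiers matched) and promoters from RefSeq, without the stretches that overlap exons.

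These were tested with edgeR 4.0.16 under R 4.3.3 (TMM, estimateDisp, glmQLFit, glmQLFTest), on genes that reached 10 counts in no fewer than 50% of the mice in 1 group of the comparison. An adjusted p under 0.05 over all genes tested was called. Each comparison was fitted on its own mice and the interaction on all 15. SE was taken from the log2 fold change and the F statistic. The fits were also run on simulated counts that gave every gene the same relative spread between mice. These data are not so even, so that run checks the code and not the calls. DESeq2 1.42.0, other scalings and filters, a fit of all mice, a replicate block by mouse number and each mouse left out in turn were the alternatives. Figures were drawn with Python 3.11.15 and matplotlib 3.10.9.

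Groups came from the labels, which give no sex, litter, date or batch. Counts of mice of a group differed beyond sampling noise (chi-square per degree of freedom 5.85 to 111), and 0 of 105 pairs of files were identical. Mouse numbers recur in the groups. Deviations from group means of same-numbered mice correlated at 0.137 to 0.410 in the 3 pairs for genotype at 19 mo, all over 0.1. By that rule the numbers were taken to pair these mice, although the labels state no pairing. Pairs of different numbers ran from -0.416 to 0.486, so the 3 values cannot establish a pairing. In the other comparisons the same-numbered pairs averaged -0.052 to 0.013.

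The members and the lists were chosen with earlier results of these data known. All 10 members were named in every comparison, and from each list up to 3 genes in each direction with the smallest p among those called. For each member the 3 most alike genes were found, of which the nearest is named, with all 3 for Postn.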

Additional observations from a re-analysis of the deposited data

Results flagged for a closer look

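Each member in each group of 4 mice was screened for a highest or lowest mouse far from the others relative to the whole range (Dixon's test at 95%), and 3 of 30 such sets passed, where chance gives about 1 in 20. Fn1 was at 206.5 CPM in 3 mo V338Y mouse 4, with the other mice of its group at 168 to 173 CPM. Eln was at 6.50 CPM in 3 mo wild-type mouse 3, the mouse that was lowest of its group for all 10 members, with the others at 9.01 to 9.39 CPM. Mmp14 was at 8.10 CPM in 3 mo V338Y mouse 2, with the others at 8.50 to 8.52 CPM. These levels rest on 148, 85, 103 and 74 counts in mice 1 to 4. The screen takes no account of counting error, so this small gap is not read as a deviant mouse.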

How the results depend on the processing

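Over 48 comparisons of a member and 801 settings, 738 kept the direction and the side of the threshold. Most of the 48 were not called in the main fit and count as kept while uncalled with the same sign. The 738 therefore says little about the calls. Of the calls, that of Timp2 with age in wild-type was lost in 6 settings and kept in 9. The calls of Mmp14 and Sparc with age held under all alternatives run in both genotypes, as did that of Timp3 in V338Y. The replicate block called 2229 genes for age in wild-type (4940 without it) and 7 members for age in V338Y (4 without it), adding Eln, Lox and Timp2. It removed Timp2 (adjusted p = 0.223 by edgeR) and Timp3 (0.142) and added Postn (-0.94, 0.0199) in wild-type. Only mice with a same-numbered partner inform these folds, and the numbers did not pair the mice there. At 19 mo the block called 110 genes and 1 member for genotype (6 and 0 without it), and 117 genes for the interaction (0 without it). The block of the interaction also used the numbers of the 3 mo mice, which did not pair them. The fit of all 15 mice removed Timp2 in wild-type (adjusted p = 0.114). DESeq2 called 66 genes for genotype at 3 mo (10 in edgeR), 62 at 19 mo and 26 for the interaction. Without a filter these counts were 33, 14 and 5. The cause of these differences was not tested.

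With each mouse left out in turn, called genes ran from 3431 to 4837 for age in wild-type, 5182 to 6448 for age in V338Y, 3 to 14 and 2 to 7 for genotype at 3 and 19 mo, and stayed at 0 for the interaction. Called members ran from 2 to 5 and from 3 to 6 with age, the low of 2 being without 19 mo wild-type mouse 4, and were 0 for genotype. Postn for age in V338Y was called only without 19 mo V338Y mouse 3 (log2 fold change 1.15, adjusted p = 0.0377 by edgeR) and was 0.29 without mouse 4.

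Direction changed in uncalled values near 0. For genotype at 19 mo these were Timp3 (0.016 with upper-quartile scaling, 0.011 with the block), Timp2 (-0.00798 without a filter, -0.00884 in the fit of all mice, -0.15 with the block) and Eln (-0.052 with the block), and for the interaction Mmp14 (0.0062 with upper-quartile scaling). With a mouse left out, Mmp2 ran from -0.072 to 0.24 for age in V338Y and from -0.078 to 0.037 for genotype at 3 mo. At 19 mo Eln ran from -0.19 to 0.21, Lox from -0.32 to 0.17, Timp2 from -0.094 to 0.21 and Timp3 from -0.081 to 0.080. In the interaction Lox ran from -0.090 to 0.40, Mmp14 from -0.15 to 0.14, Timp1 from -0.48 to 1.57, Timp2 from -0.22 to 0.12 and Timp3 from -0.053 to 0.11. Depth limits Timp1, at 0 to 25 counts per mouse.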
